A study of Bos taurus with 12 samples.

Results

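The subject is a set of 9 genes for chemokines, interleukins and their receptors in bovine endometrium, the inner lining of the uterus. They were CXCL2, CXCL3, CXCL5, CCL5 and CCL11 (chemokine ligands), IL6 (a cytokine), IL1RN (the interleukin-1 receptor antagonist), and the receptor genes CXCR1 and GPR183. The 9 genes were chosen by name, out of 5873 gene symbols that could be given to probes of the array, and each was read by 1 probe. Earlier results of these data were known when the genes were chosen, so their counts beside all probes are descriptions and not tests. The cows were of the Japanese-Black breed and at day 15 of their estrous cycle, and tissue was taken by biopsy in summer (September, at its start) and in autumn (the middle of November), over 2 years that followed each other. Per season, biopsies came from the uterine horn next to the corpus luteum (CL side), the progesterone-secreting body of the ovary, or from the other horn (non-CL side). This gave 4 groups of 3 arrays: CL-side summer, CL-side autumn, non-CL-side summer and non-CL-side autumn. From each biopsy, 400 ng of total RNA was labelled with the dye Cy3 and hybridised alone to a 1-colour Agilent array. The labels name no further treatment, do not give the year of a sample and do not state that the 3 replicates of a group were separate cows, so p-values measure only the spread between these samples.

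Chemokines are small secreted proteins that guide leukocytes along a gradient. CXCL2, CXCL3 and CXCL5 belong to the group that carries the ELR motif and draws neutrophils through the receptors CXCR1 and CXCR2, CCL5 draws T cells and monocytes, and CCL11 (eotaxin) draws eosinophils. IL6 drives the acute-phase response, IL1RN occupies the interleukin-1 receptor without signalling and so blocks interleukin-1, and GPR183 (also called EBI2) senses oxysterols and positions B cells and dendritic cells in lymphoid tissue. In the endometrium this group of genes is known for its part in the leukocyte traffic of the cycle and in the response to bacteria.

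Signals are given as log2 values relative to the 75th percentile of the processed signals of the same array, so 0 is the brightness of a probe at that percentile, and changes are log2 differences. A probe not well above background has no usable level there, and low signals were set to a floor of −7.28. Precision is limited by having 3 arrays per group. The 75th percentile lay between 3516 and 4418 intensity units on 11 arrays and at 2007 on a single array, replicate 2 of CL-side summer (the dim array). Its median correlation with the other arrays was 0.927, and it stood highest for epithelium markers and lowest for stroma markers (scores of 1.11 and −1.41, the mean log2 difference of the markers from their 12-array means). Slide 1 carried all 6 summer arrays and replicate 1 of both autumn groups, and slide 2 the other 4 autumn arrays, so season comparisons are also given within slide 1 or with the slide as a block. Of the uterine markers on the array, MSX1, PGR and SERPINA14 were well above background on 12 arrays, ESR1 on 11, FOXL2 on 9 and PAEP on 4. Biopsies are bulk tissue, in which fewer cells of a type and less RNA per cell cannot be told apart. No probe of the array passed limma's adjusted p of 0.05 in any comparison (0 of 12381 for season on the CL side, where 1228 had an unadjusted p under that level), so none of the changes below is called.

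The probes of CXCL2 and CXCL3 are shown with that of the related gene CXCL1 because these genes are close copies of each other, and a shared stretch bears on how far their signals can be read as separate. The capitals mark runs of at least 10 bases that all 3 probes hold, and the letters shown are bases 1 to 30 of the CXCL2 probe, 6 to 35 of the CXCL3 probe and 5 to 34 of the CXCL1 probe, 5′ to 3′, from the scanner files.
CXCL2: tttCTTGTAAGGCAcAATGCCTTGTTTcat
CXCL3: ttgCTTGTAAGGCAtAATGCCTTGTTTaat
CXCL1: ttcCTTGTAAGGCAtAATGCCTTGTTTagt
The 2 shared runs were CTTGTAAGGCA of 11 bases and AATGCCTTGTTT of 12 bases. CXCL3 and CXCL1 shared an unbroken run of 25 of the 60 bases, CTTGTAAGGCATAATGCCTTGTTTA, whereas CXCL2 shared no more than 12 in a row with either. The longest run that any other member shared with another of the array's 15207 probes was 12 to 14 bases. In the RefSeq gene table of ARS-UCD2.0, used for names and order only, CXCL8, CXCL5, CXCL2, CXCL3 and CXCL1 (named GRO1 there) lie in a row of 8 protein-coding genes that also holds the platelet chemokine genes PPBP and PF4 and an unnamed locus. Some array names are old: the CXCL5 probe is labelled CXCL6, and the CXCR1 probe is labelled IL8RB, a name used for the neighbouring receptor gene CXCR2. The name CXCR1 comes from the gene table, through the transcript listed for the probe. Whether the CXCR1 probe also reads CXCR2 was not tested.

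Detection divided the 9 genes into 2 sets. CXCL2, CXCL3, CXCL5, CCL5, IL1RN and GPR183 were well above background on all 12 arrays. IL6 was well above background on 9 arrays, CXCR1 on 8 and CCL11 on 6, and no member was saturated on any array. CXCR1 was missing from replicates 1 and 2 of both autumn groups. IL6 was missing from replicate 3 of CL-side autumn and from replicates 1 and 2 of non-CL-side autumn, so all 6 summer arrays measured CXCR1 and IL6. CCL11 was measured on all 3 arrays of non-CL-side summer, on 2 of CL-side summer (replicates 1 and 2), on 1 of CL-side autumn (replicate 1) and on none of non-CL-side autumn. The arrays that missed CXCR1, and those that missed IL6, were thus all autumn arrays.

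**Figure D1:**
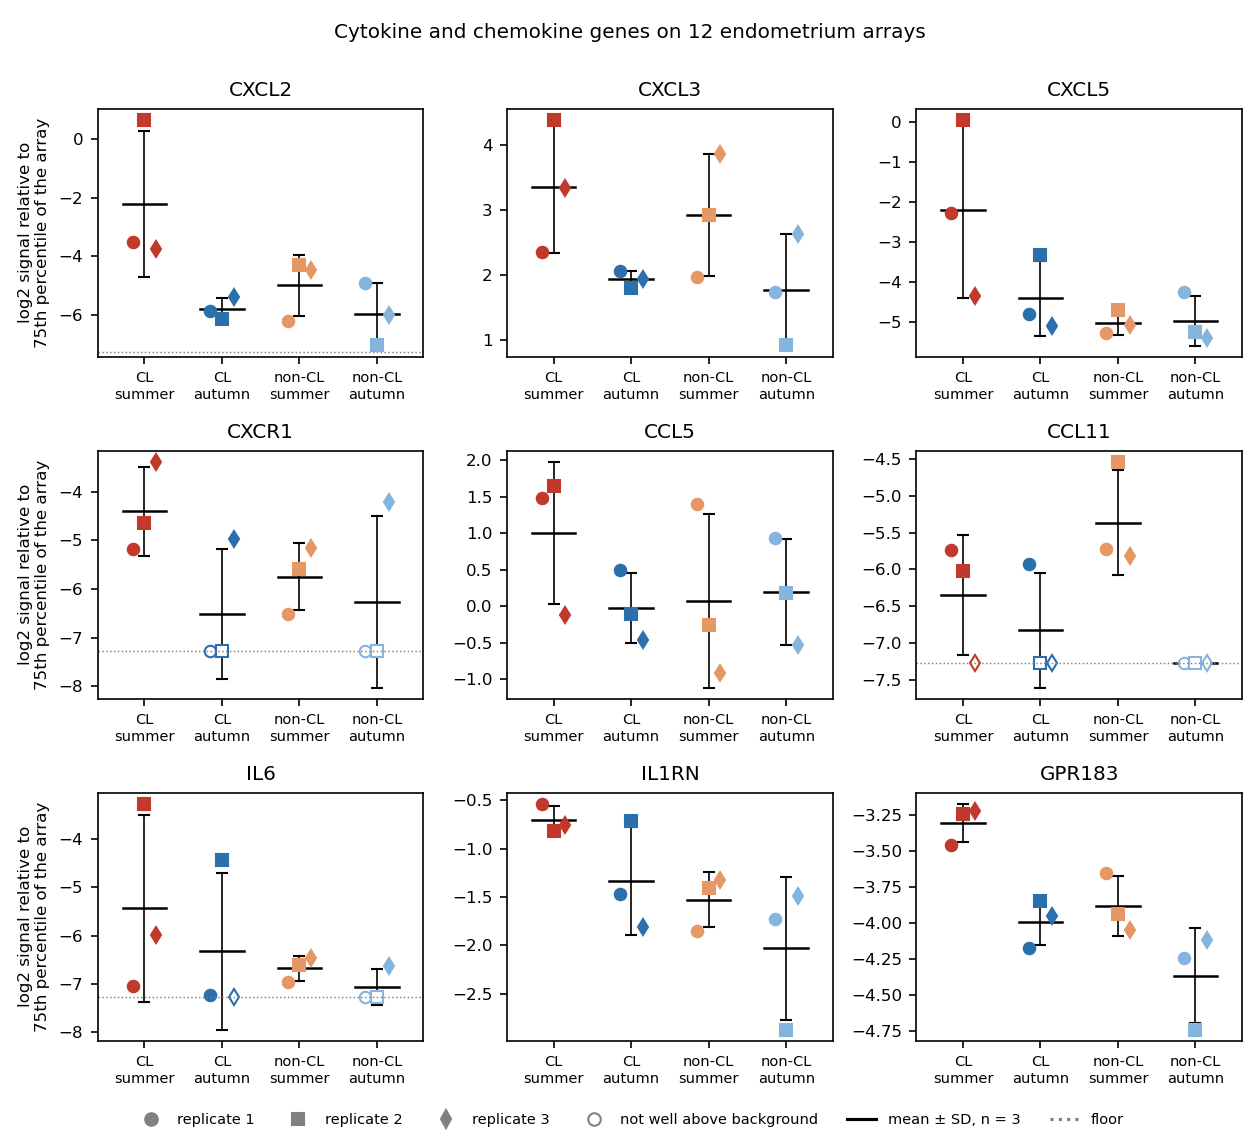
Log2 signal of the 9 genes on each of the 12 arrays, relative to the array's 75th percentile, by group; symbols are replicates 1 to 3, open symbols were not well above background, black bars are the mean ± SD (n = 3) and the dotted line is the floor of −7.28. CXCL2 and CXCL5 are highest on CL-side summer replicate 2, and GPR183 is higher on every CL-side summer array than on any other.

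Among the neutrophil-attracting ligands, CXCL2 varied most. It had log2 signals of −3.52, 0.66 and −3.76 in replicates 1, 2 and 3 of CL-side summer and −5.85, −6.13 and −5.38 in CL-side autumn. On the non-CL side it had −6.19, −4.30 and −4.48 in summer and −4.90, −7.03 and −6.01 in autumn. The CL-side summer arrays were higher than all 9 others, and the dim array stood more than 4 log2 units above the other CL-side summer arrays. The range over the 12 arrays was 7.68 log2 units, the widest of the 9 genes, and the SD over arrays was 2.01. The group means fell in the order CL-side summer (−2.21 ± 2.48), non-CL-side summer (−4.99 ± 1.04), CL-side autumn (−5.78 ± 0.38) and non-CL-side autumn (−5.98 ± 1.06; SD, n = 3 each), and the gaps between the last 3 were within the SDs.

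CXCL3 had log2 signals of 2.35, 4.38 and 3.33 in CL-side summer and 2.05, 1.80 and 1.93 in CL-side autumn. The non-CL-side signals were 1.97, 2.92 and 3.85 in summer and 1.74, 0.92 and 2.63 in autumn. The seasons did not overlap on the CL side and overlapped on the non-CL side. Its order of groups was CL-side summer (3.35 ± 1.02), non-CL-side summer (2.91 ± 0.94), CL-side autumn (1.93 ± 0.13) and non-CL-side autumn (1.76 ± 0.86), so both summer groups stood above both autumn groups, and the sides of a season did not differ beyond their SDs. CXCL1, whose probe shares the long run, had −0.58, 1.76 and 0.08 in CL-side summer and −1.45, −1.48 and −1.43 in CL-side autumn. On the non-CL side CXCL1 had −1.5, −0.38 and 0.25 in summer and −1.38, −2.96 and −0.78 in autumn, and it ranked the replicates as CXCL3 did in 3 of the 4 groups, CL-side autumn being the exception.

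CXCL5 had log2 signals of −2.27, 0.05 and −4.35 in CL-side summer and −4.79, −3.33 and −5.09 in CL-side autumn. On the non-CL side it had −5.28, −4.69 and −5.07 in summer and −4.25, −5.25 and −5.39 in autumn. CXCL5 exceeded every array of the other groups on replicates 1 and 2 of CL-side summer (group mean −2.19 ± 2.20), while replicate 3 lay among them. The other groups, CL-side autumn (−4.40 ± 0.94), non-CL-side autumn (−4.96 ± 0.62) and non-CL-side summer (−5.02 ± 0.30), did not differ beyond their SDs.

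CXCR1 is a chemokine receptor that neutrophils carry. It had log2 signals of −5.18, −4.64 and −3.39 in CL-side summer and −6.51, −5.58 and −5.16 in non-CL-side summer. In autumn it was measured on replicate 3 alone, at −4.97 on the CL side and −4.22 on the non-CL side. Its group means were −4.41 ± 0.92 in CL-side summer and −5.75 ± 0.69 in non-CL-side summer (SD, n = 3 each), and no autumn mean is given because most autumn arrays did not measure it. Replicate 3 was the highest array of CXCR1 in each of the 4 groups. The autumn replicates that did measure CXCR1 were within the range of the summer arrays, so its season difference lies in 4 arrays that were not well above background.

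Markers of neutrophils were followed beside these genes. Of 10 listed, 6 were on the array and 3 were measured (S100A8, S100A12 and FCGR3A), while MPO, CAMP and ITGAM were well above background on 1 array each. The score of the 3 markers was 1.14, 1.22 and 0.73 in CL-side summer and −0.57, 0.41 and −0.15 in CL-side autumn. The score in the non-CL horn was −0.36, −0.09 and −0.30 in summer and −0.56, −1.38 and −0.09 in autumn. Like CXCL2 and GPR183, it was higher on each CL-side summer array than on any other array. The markers did not move alike: for season on the CL side S100A8 had a change of 1.99 ± 0.47, S100A12 1.33 ± 0.49 and FCGR3A 0.08 ± 0.31. The summed scaled signal of the 3 markers ranged from 2.98 to 6.49 in CL-side summer, against 1.28 to 2.72 in CL-side autumn, and from 1.1 to 1.94 in non-CL-side summer, against 0.53 to 1.83 in non-CL-side autumn. The score of 5 measured squamous epithelium markers (of 11 listed) was 1.13, 1.93 and 0.14 in CL-side summer and −0.61, −0.88 and −0.50 in CL-side autumn, and DSG1 was detected on no array. In the non-CL horn it was −0.86, 0.42 and 0.06 in summer and −0.24, −0.14 and −0.46 in autumn, so non-CL-side summer replicate 2 exceeded CL-side summer replicate 3. The part of both scores in the members' differences was not tested.

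**Figure D2:**
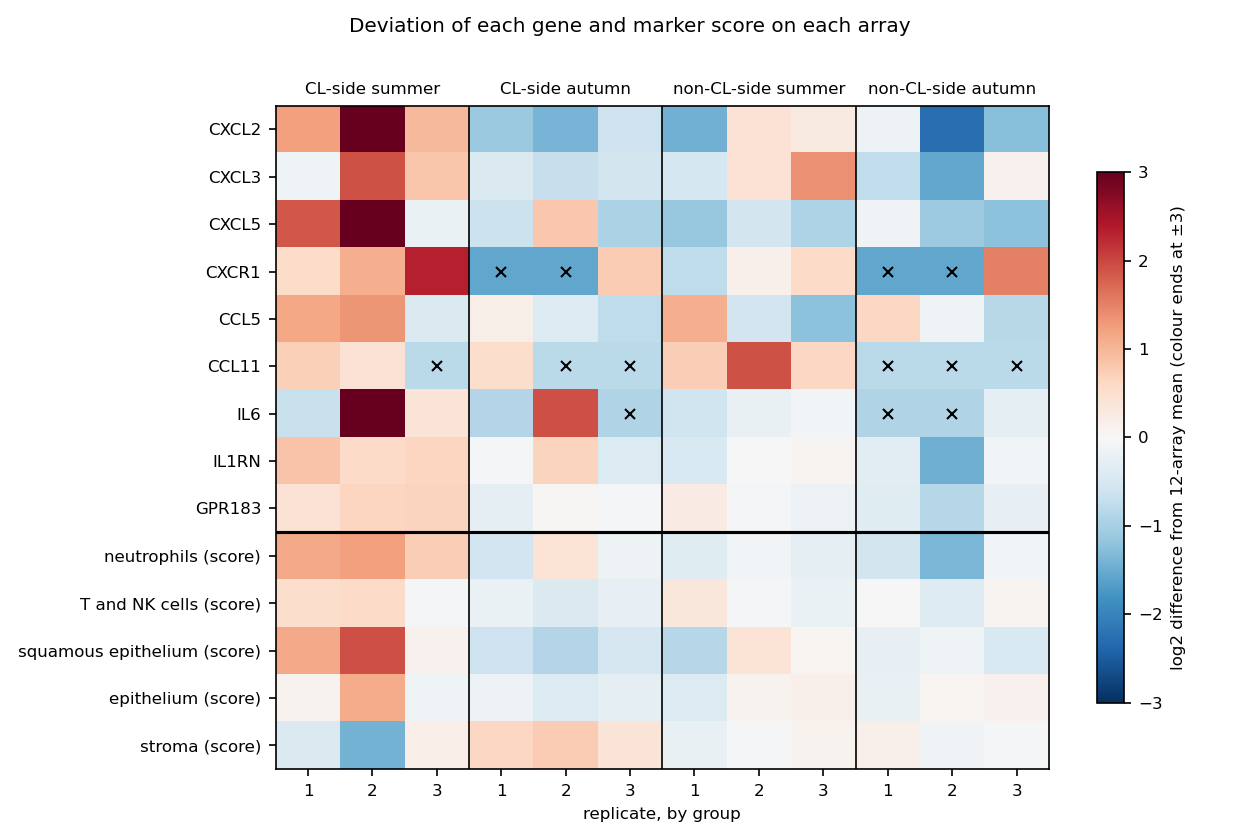
Colour shows the log2 difference of each gene (rows above the line) from its mean over 12 arrays, and the score of 5 marker lists (rows below), for each array (columns, replicates 1 to 3 by group); crosses mark arrays where the gene was not well above background and colours end at ±3. CXCL2, CXCL5 and IL6 reach the end of the scale on CL-side summer replicate 2, where the squamous score (1.93) is also highest.

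Of the CC chemokines, CCL5 had log2 signals of 1.48, 1.64 and −0.12 in CL-side summer and 0.49, −0.11 and −0.46 in CL-side autumn. The opposite horn had 1.40, −0.26 and −0.91 in summer and 0.93, 0.18 and −0.53 in autumn. Replicate 3 was the lowest array of CCL5 in every group, the reverse of CXCR1, and the seasons overlapped on both sides. Its group means were 1.0 ± 0.97 in CL-side summer, 0.20 ± 0.73 in non-CL-side autumn, 0.08 ± 1.19 in non-CL-side summer and −0.02 ± 0.48 in CL-side autumn, with no gap between neighbours beyond their SDs. The score of 9 measured markers of T and NK cells ranged from −0.03 to 0.57 in CL-side summer, against −0.43 to −0.19 in CL-side autumn, and from −0.20 to 0.35 in non-CL-side summer, against −0.39 to 0.08 in non-CL-side autumn. Its part in the CCL5 values was not tested.

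CCL11 was the only member highest on the non-CL side. It had log2 signals of −5.73, −4.54 and −5.82 in non-CL-side summer, whereas no non-CL-side autumn array was well above background. On the CL side it was measured at −5.74 and −6.02 in summer replicates 1 and 2 and at −5.93 in autumn replicate 1. Against the floor, CCL11 was at least 3.77-fold higher in non-CL-side summer than in non-CL-side autumn (limma's adjusted p = 1). This bound sets the summer mean against the autumn arrays at the lowest signal an array could still tell from background, or at the measured signal where that was higher. It holds for this scaling alone, since the fitted log2 change, 1.92, was 0.51 with the authors' values and 2.8 with a lower floor. Of the markers for eosinophils and mast cells only KIT and TPSB2 were on the array, both of mast cells, so no eosinophil marker could be set beside CCL11.

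IL6 was near background on most arrays. It had log2 signals of −7.04, −3.27 and −5.99 in CL-side summer, and −7.24 and −4.44 in replicates 1 and 2 of CL-side autumn. On the non-CL side it had −6.97, −6.61 and −6.46 in summer and −6.64 in autumn replicate 3. Replicate 2 was the highest array on the CL side in both seasons, and the other measured arrays lay between −7.24 and −5.99.

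IL1RN, the interleukin-1 receptor antagonist, had log2 signals of −0.54, −0.82 and −0.76 in CL-side summer and −1.47, −0.72 and −1.81 in CL-side autumn. In the horn away from the corpus luteum it had −1.85, −1.41 and −1.32 in summer and −1.73, −2.87 and −1.49 in autumn. The CL-side summer arrays were the tightest group of IL1RN (−0.70 ± 0.15) and did not overlap the non-CL-side summer arrays, while CL-side autumn replicate 2 lay among them. The other means were −1.33 ± 0.55 in CL-side autumn, −1.53 ± 0.29 in non-CL-side summer and −2.03 ± 0.74 in non-CL-side autumn, with gaps within the SDs.

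GPR183, the oxysterol receptor, had the smallest spread of the members, an SD of 0.44 over the 12 arrays. It had log2 signals of −3.46, −3.24 and −3.22 in CL-side summer and −4.17, −3.85 and −3.95 in CL-side autumn. On the non-CL side it had −3.65, −3.94 and −4.05 in summer and −4.24, −4.74 and −4.12 in autumn. The seasons did not overlap on either side, although on the non-CL side the closest summer and autumn arrays were nearly level (−4.05 and −4.12), and in summer the sides did not overlap. Its means ran from CL-side summer (−3.30 ± 0.13) through non-CL-side summer (−3.88 ± 0.21) and CL-side autumn (−3.99 ± 0.16) to non-CL-side autumn (−4.37 ± 0.33), and the first and last of these gaps exceeded the SDs. CH25H makes the precursor of the oxysterol ligand of GPR183 and was the 1 enzyme of that route, of 4 listed, on the array. CH25H had 0.70, 2.21 and 1.07 in CL-side summer and 0.88, 0.53 and 0.19 in CL-side autumn, and on the non-CL side 0.98, 1.17 and 1.34 in summer and 0.35, 0.48 and 0.17 in autumn.

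The season comparison on the CL side asked which genes differed between summer and autumn in the horn next to the corpus luteum. All 9 members had a change above 0 (summer minus autumn), as did 53.0% of the probes tested, and the median was 1.02 over the members and 0.02 over all probes. CXCR1 and IL6 were tested only through the summer groups and CCL11 only through non-CL-side summer, and each had autumn arrays at the floor. Their part in this count and median follows in part from that filter and floor. CCL11 and IL6 reversed with the authors' values. CXCL2 had the largest change of the members, 3.58 ± 1.05 (SE), followed by CXCL5 at 2.21 ± 0.90 and CXCL3 at 1.43 ± 0.59. The fitted 2.10 ± 0.90 of CXCR1 had 2 of the 3 autumn arrays at the floor, on which its size depends, and was 0.63 with the authors' values. GPR183 had 0.69 ± 0.19 and the smallest p of the 9 (unadjusted 0.0045, limma's adjusted p = 0.496). CXCL2, CXCL5, CXCL3, CXCR1 and GPR183 had an unadjusted p under 0.05, against 9.92% of all probes, or 6.37% counting changes above 0 alone. CXCR1 was tested only because every summer array measured it, so its place in this count follows in part from that filter and the floor. In CXCL2, CXCL3 and GPR183 each summer array was higher than each autumn array, which held for 7.97% of probes. CCL5 (1.02 ± 0.64), IL6 (0.88 ± 0.93), IL1RN (0.63 ± 0.36) and CCL11 (0.49 ± 0.49) had an unadjusted p above 0.05, and no member's adjusted p in limma was below 0.496. Markers of stroma differed between these arrays too. All 9 measured markers of 10 listed had a lower mean in summer (median change −1.1, 7 with an unadjusted p under 0.05 and none past the adjusted threshold). Their score was −0.44, −1.41 and 0.21 in CL-side summer and 0.63, 0.76 and 0.38 in CL-side autumn, and −0.22, −0.03 and 0.11 in non-CL-side summer and 0.15, −0.11 and −0.03 in non-CL-side autumn. Their summed scaled signal ranged from 56.2 to 144 in CL-side summer, against 152 to 180 in CL-side autumn. The part of these markers in the members' differences was not tested.

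The dim array carried part of these changes. In counts without it, which were added after the data were seen, 8 of 9 members had a change above 0 (53.7% of probes) and the median was 0.70. The limit of filter and floor for CXCR1, IL6 and CCL11 applies here too. CXCL2 and GPR183 had an unadjusted p under 0.05, against 3.42% of probes counting changes above 0. CXCL2 then had a change of 2.14, CXCL5 1.09, CXCL3 0.91 and IL6 −0.20, whereas GPR183 had 0.65, IL1RN 0.69 and CXCR1 2.22. CXCL2, CXCL3 and GPR183 still did not overlap between seasons, against 12.5% of probes in that smaller set. With the slide as a block CXCL2 had 3.07, CXCL5 2.05, CXCR1 3.0, CXCL3 1.37, GPR183 0.71 and CCL5 0.40. Within slide 1, where CL-side autumn is a single array, the same genes had 3.64, 2.60, 2.87, 1.30, 0.86 and 0.51, and CCL11 had −0.41.

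On the non-CL side 7 of 9 members had a change above 0, against 49.9% of probes, with a median of 0.50 and of 0.00 over all probes. CCL11 had the largest change, 1.92 ± 0.49 (unadjusted p = 0.0027, limma's adjusted p = 1), followed by CXCL3 at 1.15 ± 0.59 and CXCL2 at 0.99. CCL11 and GPR183 (0.49 ± 0.19) had an unadjusted p under 0.05, against 1.12% of probes. They were also the members whose seasons did not overlap, against 2.62% of probes with summer higher. CCL11 was tested only because every array of non-CL-side summer, the group where it was highest, measured it. All of its non-CL-side autumn arrays were at the floor. Its p and lack of overlap follow in part from this filter and floor, so its place in these counts is no support. CXCR1 and IL6 were tested only through the summer groups, so their part in the count above 0 has the same limit. CXCL5 (−0.05) and CCL5 (−0.12) had changes below 0. With the slide as a block CCL11 had 1.47, CXCL3 1.1, CXCL2 0.48, CCL5 −0.74 and GPR183 0.51, and within slide 1 these were 1.92, 1.17, −0.09, −0.85 and 0.36.

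**Figure D3:**
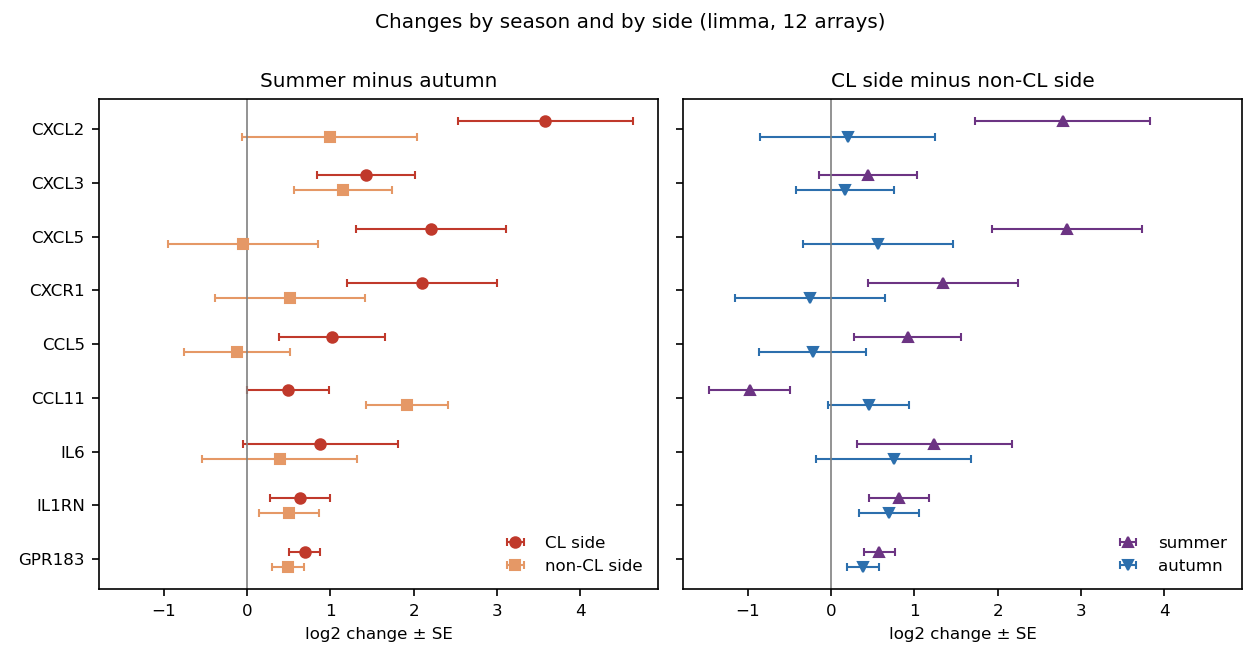
Log2 change ± SE of the 9 genes from limma, summer minus autumn on the left (circles CL side, squares non-CL side) and CL side minus non-CL side on the right (upward triangles summer, downward triangles autumn). CXCL2 and CXCL5 lie far right for season on the CL side (3.58 and 2.21) and for side in summer (2.78 and 2.83), and CCL11 is the member to the left of 0 for side in summer (−0.98).

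Whether the season change differed between the horns was tested as the difference of both changes. CXCL2 had a difference of 2.58 ± 1.48 (CL side minus non-CL side), CXCL5 2.27 ± 1.27 and CCL11 −1.43 ± 0.69. The other 6 lay between 0.13 (IL1RN) and 1.59 (CXCR1). The difference of CCL11 follows in part from the floor and from its being tested only through non-CL-side summer. Under the processing settings other than left-out arrays it ranged from −2.33 to −0.38. Of the 9, 8 were above 0, against 53.9% of probes. No member had an unadjusted p under 0.05, against 1.88% of probes (1.26% with a difference above 0), and limma's adjusted p was 0.999, so a season change particular to 1 horn was not shown for any of them. Without the dim array the difference was 1.15 for both CXCL2 and CXCL5.

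Taking the mean of the same-numbered horns of each season first gave 3 summer and 3 autumn means. All 9 members had a change above 0 (52.7% of probes), with a median of 1.08. CXCL2 had 2.28 ± 0.78, CXCL3 1.29 ± 0.45, CCL11 1.2 ± 0.36, GPR183 0.59 ± 0.13 and IL1RN 0.57 ± 0.13, all 5 with an unadjusted p under 0.05 (4.02% of probes, or 2.7% counting changes above 0 alone) and an adjusted p of at least 0.895 in limma. The summer and autumn means did not overlap for CXCL2, CCL11, IL1RN and GPR183, against 5.47% of probes. Single arrays moved some of these values. CXCL2 had 1.46 without the dim array, and IL1RN had 0.21 without non-CL-side autumn replicate 2 and 0.92 without CL-side autumn replicate 2. CCL11, with 6 of 12 arrays at the floor and tested only through non-CL-side summer, had 0.22 with the authors' values. The place of CCL11 in the counts of unadjusted p and of overlap follows in part from that filter and floor. For CCL11, and for CXCR1 and IL6, tested only through the summer groups, this holds for the count above 0 too. With the slide as a block CXCL2 had 1.77, CXCL3 1.24, CCL11 0.75 and CCL5 −0.17, in place of 0.45 for CCL5 without it.

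The side comparison asked how the horn next to the corpus luteum differed from the opposite horn, and in summer 8 of 9 members were above 0 (CL side minus non-CL side), against 48.9% of probes. CXCL5 had the largest change, 2.83 ± 0.90 (unadjusted p = 0.0099), then CXCL2 at 2.78 (0.0235), IL1RN at 0.82 ± 0.36 (0.0461) and GPR183 at 0.58 ± 0.19 (0.0122), all with a limma adjusted p of 0.984. These 4, against 1.41% of probes, were the same 4 whose CL-side arrays were all higher than the non-CL-side arrays, against 1.88% of probes. It follows from this lack of overlap that same-numbered horns ran the same way in these 4 genes, however they are paired. CXCL2 differed by 2.67, 4.96 and 0.72 between the horns of replicates 1, 2 and 3, CXCL5 by 3.01, 4.75 and 0.72, IL1RN by 1.31, 0.59 and 0.56, and GPR183 by 0.19, 0.70 and 0.84. CXCR1 differed by 1.32, 0.94 and 1.76 (change 1.34 ± 0.90) and CCL5 by 0.08, 1.9 and 0.79 (change 0.92), though the sides overlapped in both genes. How many of all probes ran 1 way in each pair was not counted, so these pair directions are descriptions alone. CXCL3 had a change of 0.44. CCL11 had pair differences of −0.01, −1.48 and −1.45 (change −0.98), the last with the CL-side array at the floor. It was tested only through non-CL-side summer, the higher group here, so its direction follows in part from that filter and floor. Under the processing settings other than left-out arrays its change ranged from −1.12 to −0.09.

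All 6 arrays of this comparison were on slide 1, so the slide does not enter it. Without the dim array 7 members were above 0 (46.4% of probes), and CXCL5 and GPR183 had an unadjusted p under 0.05, against 0.38% of probes counting changes above 0. Without the dim array the change of CXCL5 was 1.70, of CXCL2 1.35, of IL6 0.16 and of CXCL3 −0.08, and CXCL2, CXCL5, IL1RN and GPR183 still did not overlap between the sides (3.54% of probes). The neutrophil score of these arrays was 0.73 to 1.22 on the CL side and −0.36 to −0.09 on the non-CL side, and its part in these differences was not tested.

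**Figure D4:**
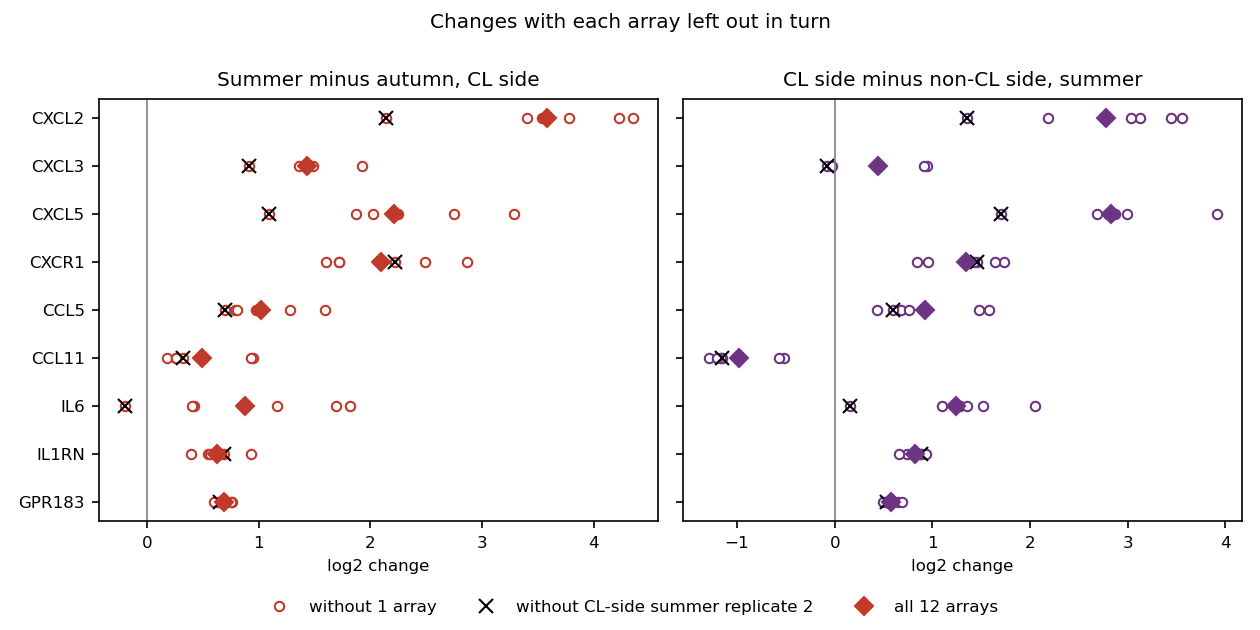
Log2 change of the 9 genes with all 12 arrays (diamonds), with each array left out in turn (open circles) and without CL-side summer replicate 2 (crosses), for summer minus autumn on the CL side (left) and CL side minus non-CL side in summer (right). In both panels the cross is the lowest point of CXCL2 (2.14 and 1.35), CXCL5 (1.09 and 1.70), CXCL3 (0.91 and −0.08) and IL6 (−0.20 and 0.16). GPR183 stays within 0.60 to 0.76 and 0.49 to 0.69.

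In autumn 7 members had a change above 0 (42.6% of probes), the median was 0.38, none had an unadjusted p under 0.05 (1.86% of probes), and none had groups that did not overlap (2.35% of probes with the CL side higher). IL6 had 0.75, IL1RN 0.69, CXCL5 0.56 and GPR183 0.38, and limma's adjusted p was 1 for all. For IL6, 3 of the autumn arrays were at the floor, and its horn differences were 0.04, 2.84 and −0.63, so replicate 2 carried its change. CXCL2 had horn differences of −0.95, 0.90 and 0.64 and CXCL5 of −0.54, 1.92 and 0.30, without 1 direction. GPR183 had 0.07, 0.89 and 0.17, above 0 in each pair, and the share of all probes for which this held was not counted.

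Among the members, the pairs that ran most alike over the 12 arrays were CXCL2 with CXCL5 (Pearson r = 0.85), CXCL2 with CXCL3 (0.81) and IL1RN with GPR183 (0.80). Without the dim array these were 0.51, 0.69 and 0.79 over 11 arrays. CXCL3 and CXCR1 had 0.70, and 0.71 without that array, whereas CXCL5 and IL6 had 0.76 and 0.34. CXCR1 was at the floor on 4 arrays and IL6 on 3, so the values of these 2 pairs rest in part on the floor. All of these describe arrays that share groups and normalization.

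Outside the set, the named gene most like CXCL3 was CXCL1 (r = 0.97 over 12 arrays, and 0.97 without the 2 arrays farthest from the median), with the nuclear receptor gene NR4A2 next at 0.96. CXCL2 was most like IL2RA, the alpha chain of the interleukin-2 receptor (0.98, and 0.88 without the 2 farthest), and the urothelial gene UPK1A (0.96). CXCL5 was most like the biliverdin reductase gene BLVRB (0.95, and 0.74 without the 2 farthest) and the tryptophanyl-tRNA synthetase gene WARS1 (0.93). CCL5 was most like KLRK1, a receptor of NK and T cells (0.98, and 0.97 without the 2 farthest), and KXD1 (0.95). IL1RN was most like S100A12, a calcium-binding protein of neutrophils (0.92, and 0.85 without the 2 farthest), and CYTH4 (0.88). GPR183 was most like the adaptor gene SLA (0.98, and 0.97 without the 2 farthest) and GPR137B (0.91). These were picked as the highest of 4514 genes measured on all arrays, so high values are built into the choice.

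Other genes of these pathways were counted from lists of 169 chemokine and interleukin ligands, receptors and response genes other than the members, of which 82 were on the array and 62 were tested. None passed limma's adjusted threshold in any comparison. For season on the CL side 45 of 62 had a change above 0 (53.0% of all probes), 10 had an unadjusted p under 0.05 in either direction (9.92% of all probes), and the median was 0.21. With the smallest p on the higher side stood the cytokine gene IL15 (1.06 ± 0.34), CXCL1 (1.88 ± 0.68) and IL2RA (0.66 ± 0.25), and on the lower side CCL25, a ligand for gut-homing T cells (−0.45 ± 0.24), IL11RA, the interleukin-11 receptor (−0.48 ± 0.28), and the adhesion gene VCAM1 (−0.51 ± 0.30). For season on the non-CL side 51 of 62 were above 0 (49.9% of all probes), with a median of 0.18. These were led by CH25H (0.83 ± 0.34), ACKR1, a decoy receptor of venules (0.81 ± 0.42), and the adhesion gene ICAM1 (0.60 ± 0.31). With the smallest p below 0 were CXCR5 (−0.73 ± 0.45), IL1R2 (−0.83 ± 0.90) and IL18 (−0.11 ± 0.24). Only CH25H of the 62 had an unadjusted p under 0.05, against 1.12% of all probes.

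Over both sides, 50 of 62 pathway genes were above 0 (median 0.21) and 8 had an unadjusted p under 0.05, against 52.7% and 4.02% of all probes. CXCL8, the interleukin-8 gene and a further neutrophil attractant, had 1.54 ± 0.46, CH25H 0.81 ± 0.25 and CXCL1 1.52 ± 0.49. CXCL8 had log2 signals of −2.54, −4.04 and −2.03 in CL-side summer and −5.19, −2.84 and −5.98 in CL-side autumn, and on the non-CL side −5.29, −4.27 and −3.23 in summer and −5.72, −6.11 and −4.80 in autumn. Unlike CXCL2, CXCL3 and CXCL5, CXCL8 was not highest on the dim array. Between the sides, 39 of 62 were above 0 in summer (median 0.14, with none under 0.05 unadjusted), against 48.9% and 1.41% of all probes. In autumn 33 were above 0 (median 0.02, with 2 under 0.05), against 42.6% and 1.86% of all probes. In summer CXCR3, a receptor of T cells, had 2.17 ± 1.02 and IL12A −1.37 ± 0.82 (CL side minus non-CL side). In autumn CCL19, a ligand that guides dendritic cells and T cells, had 2.32 ± 0.84 and IL15 −0.84 ± 0.34.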

How the data were processed

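The deposited files are the scanner output of 12 1-colour arrays. Feature Extraction 9.5.1.1 read the images per the file headers (9.5 per the submitters' processing notes). Per the file headers, the processed signal is an intensity on a linear scale, background-subtracted and detrended within the array. A further table of log2 values from the authors, deposited with unstated scaling, was used as an alternative. Controls and 466 values with an outlier flag were left out. Processed signals were divided by the array's 75th percentile, put on the log2 scale and floored at −7.28. The floor is the dimmest signal that counted as well above background, taken from the array where that limit was highest, and was added after the data were seen, since negative signals have no log. Kept were 12404 of 15208 probes, those well above background throughout 1 or more of the 4 groups. Symbols came from the files and the ARS-UCD2.0 gene table, for 6106 probes. The brightest probe stood for a gene.

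All arrays entered 1 limma 3.58.1 fit of 4 group means in R 4.3.3 (lmFit, eBayes, 8 residual degrees of freedom), with Benjamini-Hochberg adjustment over all kept probes, two-sided, at a threshold of 0.05. For season over both sides, same-numbered horns were averaged first (6 means, 4 degrees of freedom). The code was tested on simulated data. Replicate numbers of the titles were checked for pairing by correlating deviations from the group means. Between same-numbered horns of a season these correlated at 0.15 to 0.52. Between same-numbered arrays of the 2 seasons they correlated at 0.11 to 0.35, and each pair was over 0.1. The numbers were taken to pair the samples on that basis and not from a label. The check covered same-numbered arrays alone, so it cannot show that they are true pairs. The fit of 4 group means had no term for pairing.

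The members, lists and tests were chosen with earlier results of these data known. Named were all 9 members, for each comparison up to 3 pathway genes per direction with the smallest unadjusted p (a selection of these is printed), and for each member measured on all arrays the 2 genes with the highest Pearson r. CXCL8, CXCL1 and CH25H values per array are given because they pass that rule. A further neutrophil marker was taken out of the list and is not reported here.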

Additional observations from a re-analysis of the deposited data

How the results depend on the processing

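The 54 changes of members gave 1170 values under the alternatives (background correction, quantile normalization, the authors' values, filters on dim probes, floor, slide, replicate block, each array left out). Of these 1132 kept their direction, 38 values in 19 results reversed, and 0 passed the threshold; the cause of the reversals was not tested. With the authors' values CCL11 (−0.07) and IL6 (−0.11) reversed for season on the CL side, CXCR1 (−0.11) and IL6 (−0.01) for season on the non-CL side, CXCR1 for side in autumn (0.25), and IL6 for the difference between season changes (−0.10) and for season over both sides (−0.06). Within slide 1 CCL11 had −0.41 for season on the CL side, CXCL2 −0.09 on the non-CL side, and CXCL2 −0.95 and CXCL5 −0.54 for side in autumn. CCL5 over both sides had −0.17 with the slide as a block and also within slide 1, and IL6 had −0.03 for the difference between season changes at a lower floor.

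Leaving out 1 array at a time gave ranges that cross 0 for IL6 for season on the CL side (−0.20 to 1.82), for side in autumn (−0.19 to 1.23) and for the difference between season changes (−0.59 to 1.44). For season on the non-CL side this held for CXCL5 (−0.27 to 0.30) and CCL5 (−0.78 to 0.38), and for CXCL3 for side in summer (−0.08 to 0.94). For side in autumn it held for CXCL2 (−0.33 to 0.74), CXCL3 (−0.26 to 0.60), CXCR1 (−1.02 to 0.77) and CCL5 (−0.58 to 0.15), and for the difference between season changes for CXCL3 (−0.24 to 0.78) and IL1RN (−0.14 to 0.55).

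The count of probes past the threshold, 0 with all arrays, ranged with 1 array left out from 0 to 7 for season on the CL side (2, 4 and 7 without CL-side summer replicate 1, summer replicate 3 and autumn replicate 3), from 0 to 6 for side in autumn (6 without CL-side autumn replicate 3), and from 0 to 1 for side in summer and for the difference between season changes (1 without CL-side summer replicate 3 in both). It was 1 for season on the non-CL side within slide 1. With the replicate block, both across groups and for same-numbered horns, the count was 0 in each comparison, so the pairing changed no call. The mean of all probes of a gene was not run because each member has 1 probe, and CXCR1, IL6 and CCL11 have no value where only probes measured on all 12 arrays were kept.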

Other observations

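Of the pathway genes on the array, several ligands and receptors of other leukocyte routes were not well above background on any of the 12 arrays. They were IL3, IL4, IL5, IL17A and LIF among 19 listed interleukins and related cytokines, CCR1 and CCR4 among 15 chemokine receptors, and IL18RAP among 10 interleukin receptors and binding proteins. All 17 listed chemokine ligands other than the members were measured on at least 1 array, 14 of them on all 12.

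CXCR3, the receptor of T cells for interferon-induced chemokines, was carried by a single array. It had log2 signals of −6.27, −5.46 and −1.16 in CL-side summer, while the 9 other arrays lay between the floor and −5.89. CL-side summer replicate 3, which holds that value, was also the highest array of CXCR1 and GPR183.

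CCL19 had log2 signals of −3.09, −1.67 and −3.75 in CL-side summer and −2.03, −0.59 and −3.92 in CL-side autumn, and in the other horn −2.84, −3.26 and −3.71 in summer and −5.58, −3.27 and −4.64 in autumn. Its change of 2.32 ± 0.84 between the horns in autumn (CL side minus non-CL side) had an adjusted p of 1 in limma, and in summer the change was 0.43 ± 0.84.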
